A study of Mus musculus with 6 samples.

Results

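The 10 genes described here, Pdia3, Hspa5, Hsp90b1, Calr, Dnajb9, Herpud1, Ddit3, Atf4, Xbp1 and Chac1, belong to the unfolded protein response of the endoplasmic reticulum (ER). They were chosen by name, and their probes were found through the RefSeq transcript that each array probe is annotated with. All 10 genes were found, among 24059 genes that passed the filter on dim probes. They were carried by 12 probes of 1 spot each, since Atf4 and Dnajb9 had 2 probes and the other 8 genes had 1. All 12 probes passed the filter.

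The RNA came from retinas of adult male C57BL/6 mice, 12 per group, given SH-42, SH-80 or phosphate-buffered saline (PBS, the negative control) into the vitreous of the right eye. The labels give 1 µM for the injected substance and name both compounds by code only. At day 7 the retinas were collected, 4 to a tube, and each of the 6 dual-colour arrays, 3 for SH-42 and 3 for SH-80, set a pool of injected eyes against a control pool. The labels do not say whether the control pools of different arrays were separate, and 12 control mice pooled by 4 would fill fewer tubes than there were arrays, so p-values measure the spread between arrays, which may be partly technical. By the labels the Cy3 channel held the compound's RNA and the Cy5 channel the control RNA on every array, with no dye exchange.

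Proteins bound for the membrane or for secretion fold in the ER, and unfolded chains there are sensed by the transmembrane proteins PERK, IRE1 and ATF6. ATF6 and the spliced form of XBP1, which IRE1 produces, switch on genes of ER chaperones and of ER-associated degradation, whereas PERK slows translation and raises the translation of ATF4, which switches on Ddit3, Chac1 and amino acid genes. In the retina this response is best known from photoreceptors, which make large amounts of membrane protein in the ER, and from their degeneration when such proteins misfold.

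ATF6 and XBP1 act through the ER stress response element, whose letters are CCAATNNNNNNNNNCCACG. The promoters among the 10 genes that hold it are shown here, and they belong to 3 of the 4 genes with the role of lumenal chaperone, Pdia3, Hspa5, Hsp90b1 and Calr. RefSeq promoter windows of build GRCm38.p6, from 250 bases before to 50 after each gene's start, were available for all 10 genes. The element was present, on either strand, in 39 of 32851 windows of that length (0.119%) and in 3 of the 10 genes, Hspa5, Hsp90b1 and Calr. Hspa5 had it at positions -65 to -47 from the start on the forward strand, Calr at -162 to -144 on the reverse strand, and Hsp90b1 had 2 copies, at -212 to -194 forward and at -107 to -89 reverse. The 250 bases before each start follow, 5′ to 3′ in the direction of transcription, with the element in capitals, for Hspa5 at chr2:34771840-34772089 on the plus strand, Hsp90b1 at chr10:86705445-86705694 on the minus strand and Calr at chr8:84846932-84847181 on the minus strand.
Hspa5: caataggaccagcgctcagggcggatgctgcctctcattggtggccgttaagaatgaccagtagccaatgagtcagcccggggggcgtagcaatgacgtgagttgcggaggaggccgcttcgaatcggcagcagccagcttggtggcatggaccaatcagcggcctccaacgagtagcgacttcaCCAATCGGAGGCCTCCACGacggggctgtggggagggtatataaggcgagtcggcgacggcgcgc
Hsp90b1: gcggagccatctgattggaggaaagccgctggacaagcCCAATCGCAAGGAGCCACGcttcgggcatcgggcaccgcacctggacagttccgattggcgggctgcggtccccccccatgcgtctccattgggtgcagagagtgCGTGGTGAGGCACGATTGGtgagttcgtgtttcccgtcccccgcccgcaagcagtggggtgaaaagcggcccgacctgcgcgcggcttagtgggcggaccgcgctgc
Calr: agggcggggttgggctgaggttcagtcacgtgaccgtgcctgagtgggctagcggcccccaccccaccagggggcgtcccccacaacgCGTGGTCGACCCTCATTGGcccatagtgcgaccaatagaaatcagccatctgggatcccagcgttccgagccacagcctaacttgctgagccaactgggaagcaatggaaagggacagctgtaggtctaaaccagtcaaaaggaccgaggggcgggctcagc

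The second form of the element, ATTGGNCCACG, occurred in 12 windows (0.0365%) and, of the 10 genes, in Herpud1 at -52 to -42. The letters TGATGNAA, the core bound by ATF4 together with a partner, occurred in 1304 windows (3.97%), among them those of Chac1 at -193 to -186 and Herpud1 at -112 to -105, both on the reverse strand. TGACGTGG, a core bound by XBP1 and ATF6, occurred in 222 windows (0.676%) and in none of the 10. None of these matches overlapped another, and a match describes letters, not binding.

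Before the values, a few facts of the arrays bear on them. Log ratios are log2 ratios of Cy3 over Cy5, so that a negative value is a lower signal for the compound by the labels. The deposited value table of the series runs the other way, Cy5 over Cy3, and no dye was exchanged, so the direction rests on the labels and is not settled by the data. The spread of the log ratios over all genes had an SD of 0.16 to 0.50 per array. SH-42 replicate 1 stood apart: its log ratios correlated at -0.159 to 0.163 with those of the other 5 arrays, against 0.471 to 0.866 among the other 10 pairs (a description over genes that share arrays and probes). The retina label was borne out by rod markers, of which 8 of 8, Sag and Gnat1 among them, were well above background in both channels on all 6 arrays. Marker lists of gliosis, muscle and lens varied far more than the genes described here. The median log ratio of 7 gliosis genes was -1.81 on SH-42 replicate 1 and 1.24 at most on the other SH-42 arrays, that of 8 skeletal muscle genes ranged from -2.50 to 0.47 over the 6 arrays, and that of 10 lens fibre genes from 0.58 to 3.36. The median of 7 microglia and macrophage genes ranged from -1.68 to 1.89. By channel, their median normalized log2 signal ranged from 11.04 to 11.24 in Cy3 and from 9.54 to 13.01 in Cy5. For the gliosis genes it ranged from 11.36 to 11.67 in Cy3 and from 9.87 to 13.49 in Cy5. For the lens genes it ranged from 14.59 to 14.63 in Cy3 and from 11.14 to 13.67 in Cy5. No marker list of the 8 had per-array medians that separated the SH-42 arrays from the SH-80 arrays. Yet the fitted difference, SH-42 minus SH-80, was negative for 7 of 7 gliosis genes (median -1.12), 7 of 7 microglia genes (-1.35) and 10 of 10 lens genes (-1.45), and positive for 8 of 8 rod genes (0.32), with none of these passing the test. On SH-42 replicate 3 the medians of gliosis (1.24), microglia (1.78) and rod genes (-0.08) lay within the range of the SH-80 arrays. The lens median (0.93) on that array lay below that range. On SH-42 replicate 1 the microglia median was -1.68 and the rod median 0.58. Slide 1 held SH-42 replicates 1 and 2, and slide 2 held the other 4 arrays.

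For SH-42 against control, Pdia3 was lower in Cy3 than in Cy5 and was the only gene of the 10 that passed the test. For SH-80 against control, Atf4 alone passed, also lower in Cy3. With 1 of 10 genes called for SH-42, the background was 0.599% of all genes (0.544% lower in Cy3). With 1 of 10 called for SH-80, the background was 14.7% of all genes (10.1% lower), a share close to that of the 10 genes. Calls are adjusted p-values under 0.05 from limma, with Benjamini-Hochberg adjustment over all genes tested. In pooled whole retina, fewer cells of a type and less RNA per cell cannot be told apart.

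The lumenal chaperones gave the most uneven picture. Pdia3 encodes ERp57, a disulfide isomerase that works with calreticulin on glycoproteins. Its log2 ratios were -0.72, -0.43 and -0.59 on SH-42 replicates 1 to 3. On SH-80 replicates 1 to 3 they were 0.04, -0.08 and -0.07. All 3 SH-42 arrays lay below all 3 SH-80 arrays, which stayed within 0.08 of 0. The fitted ratio for SH-42 was -0.58 ± 0.07 (SE, 3 arrays), a 1.49-fold lower signal, with a limma adjusted p of 0.0355 and a 95% interval of -0.75 to -0.41. For SH-80 it was -0.04 ± 0.07, with a limma adjusted p of 0.737. The Pdia3 call for SH-42 held in 10 of 20 alternatives and its sign in all 20, with ratios from -1.03 to -0.51. Those 10 include the fit on slide 2, which held 1 SH-42 array. They also include the other probe filters and the mean over probes, which left the ratio of this gene with 1 probe unchanged. It was lost without SH-42 replicate 2 (limma adjusted p = 0.0662) and without SH-42 replicate 3 (0.251), and held without SH-42 replicate 1 (0.0297). Leaving out an SH-80 array, each of which adds to the shared estimate of spread, ended the call as well (limma adjusted p 0.117 to 0.131). The ratio was -0.57 over the SH-42 arrays of slide 1, -0.59 on that of slide 2, and -0.58 with slide as a block (limma adjusted p = 0.10).

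**Figure D1:**
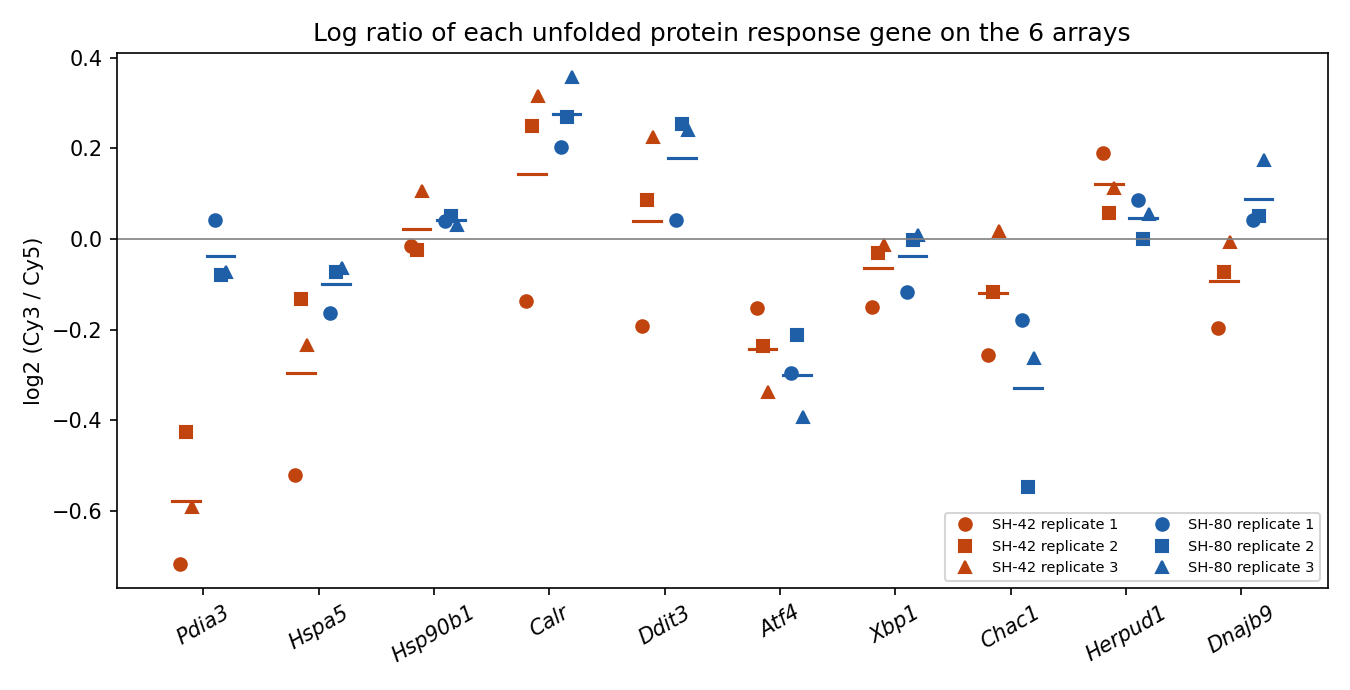
Log2 ratio of Cy3 over Cy5 (vertical axis) for the brightest probe of each of the 10 genes, with 1 point per array, SH-42 in orange and SH-80 in blue, and short lines at the mean of 3 arrays. The 3 SH-42 points of Pdia3, from -0.72 to -0.43, sit below all its SH-80 points, and the Atf4 points of both compounds, from -0.39 to -0.15, sit below 0.

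Hspa5 encodes BiP, the ER chaperone that also holds the stress sensors inactive. The log2 ratios of Hspa5 were -0.52, -0.13 and -0.23 on the SH-42 arrays and -0.16, -0.07 and -0.07 on the SH-80 arrays. All 6 were below 0, and the compounds overlapped. The fitted ratio was -0.30 ± 0.08 for SH-42 and -0.10 ± 0.08 for SH-80, with limma adjusted p of 0.146 and 0.427, so neither passed. Without SH-42 replicate 1 the SH-42 ratio was -0.18. The lowest value came from SH-42 replicate 1, the array on which the gliosis median was -1.81 and the muscle median -2.50. On SH-80 replicate 2 the muscle median was -1.82 and the gliosis median 1.07, with Hspa5 at -0.07. The part of those cells in the Hspa5 values was not tested.

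Calr encodes calreticulin, the lectin chaperone that binds monoglucosylated chains. Its log2 ratios were -0.14, 0.25 and 0.32 on the SH-42 arrays and 0.20, 0.27 and 0.36 on the SH-80 arrays. SH-42 replicate 1 was thus the one array with a negative value, and the remaining 5 lay together. The fitted ratio was 0.14 ± 0.10 for SH-42 (limma adjusted p = 0.387) and 0.28 ± 0.10 for SH-80 (limma adjusted p = 0.0967). The SH-80 value passed the test when SH-42 replicate 1 was left out (limma adjusted p = 0.0126). In that fit 9336 of 24059 genes passed for SH-80, and the Calr ratio itself stayed at 0.28. The SH-80 ratio turned to -0.02 when arrays were centred on their median in place of loess.

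Hsp90b1 encodes GRP94, the HSP90 of the ER, and had the narrowest range of log ratios of the 10 genes. Its log2 ratios were -0.01, -0.02 and 0.11 on the SH-42 arrays and 0.04, 0.05 and 0.03 on the SH-80 arrays. No array moved by more than 0.11 either way, and the fitted ratios were 0.02 ± 0.05 and 0.04 ± 0.05. The 95% intervals ran from -0.11 to 0.15 for SH-42 and from -0.09 to 0.17 for SH-80. Without loess, with arrays centred on their median, the SH-42 value was -0.59 and passed the test, in a fit that moved the median of all genes to -0.25. Of the 3 chaperones with the ER stress response element shown above, Hspa5, Hsp90b1 and Calr, none passed the test for either compound by limma, and Hspa5 for SH-42 and Calr for SH-80 had unadjusted p under 0.05 (0.0108 and 0.0266).

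Dnajb9 encodes ERdj4, a J-domain partner of BiP. On the arrays in order its log2 ratios were -0.20, -0.07 and -0.01 on the SH-42 arrays and 0.04, 0.05 and 0.17 on the SH-80 arrays. The compounds fell on opposite sides of 0 without overlap. The fitted ratios, -0.09 ± 0.06 and 0.09 ± 0.06, did not pass for either (limma adjusted p 0.385 and 0.345). With median centring in place of loess they were -0.50 and -0.16, both below 0. The second Dnajb9 probe, which was dimmer and well above background in Cy3 on 4 of 6 arrays, gave -0.10, 0.00 and 0.22 for SH-42 and 0.15, 0.16 and -0.05 for SH-80, and there the compounds overlapped.

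Herpud1 encodes a membrane protein that assembles the ER degradation machinery. The log2 ratios of Herpud1 were 0.19, 0.06 and 0.11 on the SH-42 arrays and 0.09, 0.00 and 0.06 on the SH-80 arrays. It was the only one of the 10 genes above 0 on all 6 arrays, which 13% of all genes were, and the compounds overlapped. The fitted ratios of 0.12 ± 0.05 and 0.05 ± 0.05 did not pass (limma adjusted p 0.239 and 0.569). With arrays centred on their median in place of loess they were -0.37 and -0.24.

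Among the transcription factors, Atf4 gave the one call. Atf4 encodes the factor whose translation rises when PERK or another eIF2α kinase is active. Its brighter probe had log2 ratios of -0.15, -0.24 and -0.34 on the SH-42 arrays and -0.30, -0.21 and -0.39 on the SH-80 arrays. All 6 lay below 0, as for Hspa5 and for 21% of all genes, and the compounds overlapped. The fitted ratio was -0.30 ± 0.06 for SH-80, a 1.23-fold lower signal (limma adjusted p = 0.0353), and -0.24 ± 0.06 for SH-42 (limma adjusted p = 0.141). The difference between compounds was 0.06 ± 0.09 (limma adjusted p = 0.793). No dye was exchanged, and the part of a dye effect in these ratios was not tested. The other Atf4 probe gave 0.00, -0.18 and -0.13 for SH-42 and -0.17, 0.02 and -0.10 for SH-80. Averaged over both probes, the SH-80 ratio was -0.19 and no longer passed (limma adjusted p = 0.0803). With slide as a block it was -0.23 (limma adjusted p = 0.403). The call was also lost without SH-42 replicate 2 (limma adjusted p = 0.0576) and with each SH-80 array left out in turn (0.142 to 0.209), and held in 9 of 18 alternatives, with the sign kept in all 18.

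Ddit3 encodes CHOP, the factor of the late, death-prone phase of the response. For Ddit3 the log2 ratios were -0.19, 0.09 and 0.23 on the SH-42 arrays and 0.04, 0.25 and 0.24 on the SH-80 arrays. The compounds overlapped, with SH-42 replicate 1 again the lowest. The fitted ratios, 0.04 ± 0.09 and 0.18 ± 0.09, did not pass (limma adjusted p 0.80 and 0.219).

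Xbp1 encodes the factor that IRE1 activates by splicing; the probe gave 1 value per transcript, and splicing was not analysed here. Its log2 ratios were -0.15, -0.03 and -0.01 on the SH-42 arrays and -0.12, 0.00 and 0.01 on the SH-80 arrays. Replicate 1 of each compound was the lowest and the rest lay within 0.03 of 0. The fitted ratios were -0.06 ± 0.06 and -0.04 ± 0.06 (limma adjusted p 0.507 and 0.686).

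Chac1 encodes an enzyme that breaks down glutathione and is a target of ATF4. Its raw signals were 423.5 to 506 in Cy3 and 585 to 920 in Cy5. Log2 ratios of Chac1 were -0.25, -0.12 and 0.02 on the SH-42 arrays and -0.18, -0.55 and -0.26 on the SH-80 arrays. The 3 SH-80 arrays lay below 0, SH-80 replicate 2 the furthest, and the compounds overlapped. The fitted ratio was -0.33 ± 0.09 for SH-80, the largest of the 10 for that compound, and just missed the threshold (limma adjusted p = 0.0576). It passed in 6 of 18 alternatives. For SH-42 it was -0.12 ± 0.09 (limma adjusted p = 0.441).

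As a list, the 10 genes had a median fitted ratio of -0.08 for SH-42 and 0.00 for SH-80, beside -0.03 for all genes with either compound. Of the 10, 4 were positive and 6 negative for SH-42, and 5 and 5 for SH-80. These signs depend on loess: with arrays centred on their median instead, all 10 were negative for both compounds. The medians of all genes were then -0.25 for SH-42 and -0.15 for SH-80. Fitted ratios of 1.2-fold or more, called or not, were found in 2 of 10 for SH-42, Pdia3 and Hspa5 (18.7% of all genes), and in 3 of 10 for SH-80, Chac1, Atf4 and Calr (26.8% of all genes). At an unadjusted p under 0.05 there were 3 of 10 for SH-42 (23.4% of all genes) and 3 of 10 for SH-80 (35.5%).

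SH-42 and SH-80 were then compared with each other in the same fit, in which a dye effect shared by all arrays cancels. No gene passed, among the 10 or among all 24059 (limma, 0%), and 944 genes (3.92%) had an unadjusted p under 0.05, of the 10 only Pdia3. The difference for Pdia3 was -0.54 ± 0.10, with a 95% interval of -0.78 to -0.30 and an adjusted p of 0.691 by limma (0.00139 unadjusted, rank 7 of 24059). A difference at least as large without overlap of the arrays was found in 96 genes (0.399%). Within slide 2, which held 1 SH-42 array and the 3 SH-80 arrays, the Pdia3 difference was -0.55. In the alternatives it ranged from -0.75 to -0.47 and never passed.

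The remaining 9 differences were smaller than that of Pdia3, and their intervals all held 0. They were -0.20 for Hspa5 (95% interval -0.48 to 0.09), -0.18 for Dnajb9 (-0.39 to 0.03) and 0.21 for Chac1 (-0.10 to 0.52). Ddit3 differed by -0.14 (-0.45 to 0.18) and Calr by -0.13 (-0.46 to 0.19). The differences of Hsp90b1 (95% interval -0.20 to 0.16), Herpud1 (-0.11 to 0.26), Xbp1 (-0.23 to 0.17) and Atf4 (-0.16 to 0.28) were the closest to 0. Each interval still reached the size of the Hspa5 difference on at least one side of 0, so a missed threshold does not show that the compounds act alike. The log ratios of both compounds were without overlap for 2 of the 10 genes, Pdia3 and Dnajb9, as for 13.5% of all genes, with SH-42 the lower in both (5.41% of all genes).

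**Figure D2:**
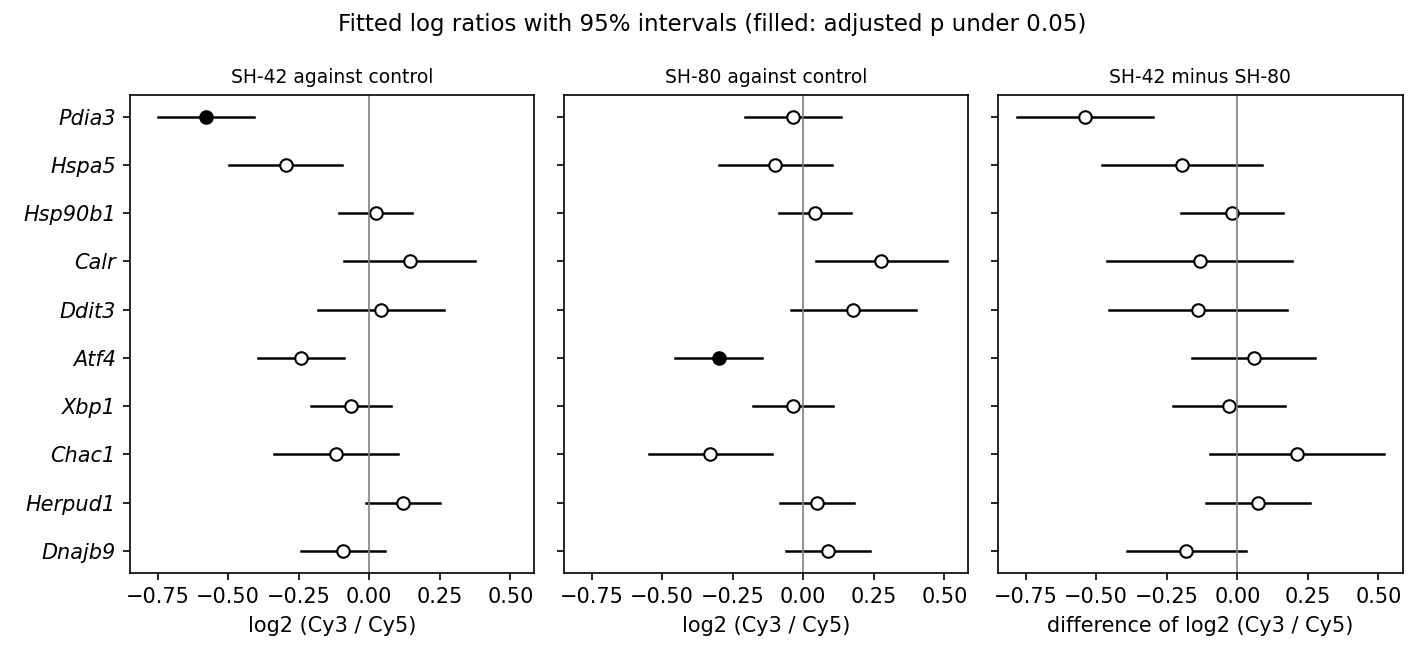
Fitted log2 ratios of Cy3 over Cy5 for SH-42 and SH-80 against control, and their difference (horizontal axes), with 95% intervals, for the 10 genes. Filled points are those past an adjusted p of 0.05 by limma, namely Pdia3 for SH-42 (-0.58) and Atf4 for SH-80 (-0.30), and the interval of the Pdia3 difference runs from -0.78 to -0.30.

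The channels showed where these ratios arose. For Pdia3 the normalized log2 signal of Cy3, the compound's channel by the labels, was 11.19, 11.27 and 11.24 on the SH-42 arrays and 11.24, 11.25 and 11.32 on the SH-80 arrays. In Cy5, the control channel by the labels, it was 11.90, 11.70 and 11.83 on the SH-42 arrays and 11.20, 11.33 and 11.40 on the SH-80 arrays. The separation between compounds was thus in the control channel, which by the labels holds RNA of control eyes on all 6 arrays, and the Cy3 signals overlapped. The raw median intensities, before background correction and loess, had the same order: 3677 to 4445.5 in Cy5 of the SH-42 arrays and 3094 to 3481 in Cy5 of the SH-80 arrays, with Cy3 at 1886 to 2032 over all 6.

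Hspa5 and Dnajb9 also had normalized Cy5 signals without overlap, higher on the SH-42 arrays. The Cy5 signal of Hspa5 was 14.40, 14.06 and 14.06 on the SH-42 arrays and 13.99, 13.93 and 13.97 on the SH-80 arrays. That of Dnajb9 was 11.01, 10.90 and 10.83 against 10.76, 10.79 and 10.75. In the raw intensities, unlike for Pdia3, both overlapped: 19742 to 27221 against 18939.5 to 22268.5 for Hspa5, and 2042 to 2348.5 against 1973 to 2373 for Dnajb9. These 3 of 10 genes compare with 13.3% of all genes. In Cy3 none of the 10 genes had signals without overlap, against 16.3% of all genes.

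In general Cy5, the control channel by the labels, varied more over the arrays than Cy3, the compound channel by the labels. Over 18218 genes well above background in both channels on all arrays, the median SD over the 6 arrays was 0.0561 in Cy3 and 0.15 in Cy5 on the log2 scale, and over the 10 genes it was 0.0413 and 0.11. Pdia3 had an SD of 0.0454 in Cy3 and 0.288 in Cy5, the widest Cy5 spread of the 10. For Xbp1 the Cy3 signals of all 6 arrays lay within 0.0296 of each other and the Cy5 signals within 0.175. For Atf4 the Cy3 signals (15.32 to 15.42) all lay below the Cy5 signals (15.57 to 15.72), with little spread in either.

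**Figure D3:**
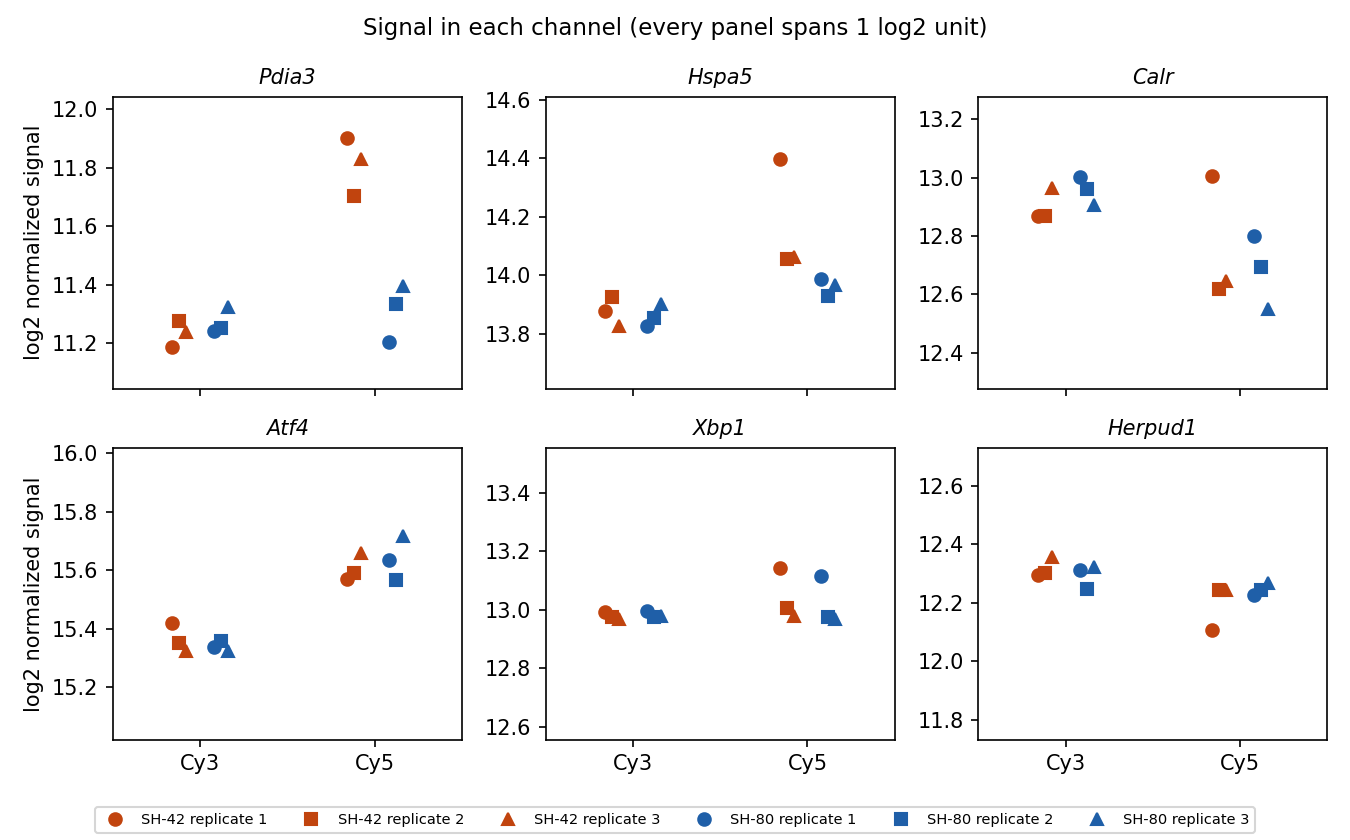
Normalized log2 signal (vertical axis, each panel spanning 1 unit) in the Cy3 and Cy5 channels for 6 of the genes, with 1 point per array. Pdia3 differs between compounds in Cy5 (11.70 to 11.90 for SH-42, 11.20 to 11.40 for SH-80) and not in Cy3, whereas the Xbp1 and Herpud1 points of both compounds lie together.

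The genes with a symbol whose log ratios over the 6 arrays ran most like a given gene's were found by the root mean square (RMS) difference after subtracting each gene's mean. For Hspa5 they were Eif4a1 (RMS difference 0.0271), a translation initiation helicase, Dlk1 (0.0316) and Olfr285 (0.0329), against an own RMS of 0.155 for Hspa5. For Ddit3 they were Mkln1 (0.0206), Slc19a2 (0.0264), a thiamine transporter, and Tmem243 (0.0269), against an own RMS of 0.156. Those for Pdia3 were looked up after its values were seen. They lay less close, Rnu3b1 at 0.0763, Bax, the pore-forming death protein, at 0.0961 and the nuclear import receptor Tnpo1 at 0.0969, against an own RMS of 0.286. These are likenesses among 15916 genes over 6 arrays, with no p.

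The wider pathway was read from 6 lists with 120 genes that exclude the 10, of which 118 were measured. For SH-42 none of the 118 passed (limma; 22 had an unadjusted p under 0.05), with 44 positive (37.3%, against 43% of all genes) and a median of -0.06. For SH-80 3 were higher and 2 lower, 4.24% of the 118 against 14.7% of all genes, with 82 positive (69.5%, against 44.4% of all genes) and a median of 0.11. The 2 lower include Ern2, whose Cy3 signal was not well above background on any array. The number of calls depended on SH-42 replicate 1. Without it 5 of 13 sensors and transducers, 6 of 26 ATF4 arm genes and 11 of 28 chaperones passed for SH-80. So did 4 of 20 degradation, 13 of 22 translocation and 6 of 9 death genes, and 9336 of all 24059 genes. For the difference none passed (2 unadjusted), 26 were positive (22%, against 53.6% of all genes) and the median was -0.13. Log ratios were without overlap between compounds for 15 of the 118 (12.7%), close to the 13.5% of all genes.

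Of 13 sensors and transducers none passed for SH-42, where Eif2ak3, which encodes PERK, was at -0.32 ± 0.09, Atf6 at 0.20 ± 0.08 and Ern1, which encodes IRE1α, at -0.19 ± 0.08 (limma adjusted p 0.149, 0.202 and 0.209). For SH-80 1 passed, Ern2, the epithelial IRE1 paralogue (limma adjusted p = 0.0314), but its Cy3 signal was not well above background on any array. It passed the filter on dim probes through Cy5 alone, so its call is not read as a lower level and no fold is given. That call was lost with each SH-80 array left out (limma adjusted p 0.126 to 0.201).

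Of 26 measured genes of the ATF4 arm and amino acid response, 1 passed for SH-80, Sqstm1, the autophagy receptor p62. Its fitted ratio was 0.31 ± 0.08 (limma adjusted p = 0.0447). It was 0.21, 0.27 and 0.46 on the SH-80 arrays and -0.01, 0.13 and 0.23 on the SH-42 arrays, which overlapped. The call held in 6 of 18 alternatives and was lost with each array but SH-42 replicate 1 left out in turn (limma adjusted p 0.0512 to 0.237). The median of this list was -0.15, -0.02 and 0.07 on the SH-42 arrays and 0.16, 0.12 and 0.12 on the SH-80 arrays. It was the one list of the 6 whose medians did not overlap between compounds. Yet 0 of its 26 measured genes had log ratios without overlap, against 13.5% of all genes. For SH-42 none passed, with Vldlr, a lipoprotein receptor, at 0.36 ± 0.10 and Psat1, of serine synthesis, at -0.37 ± 0.15 (limma adjusted p 0.143 and 0.211). The other probe of Vldlr averaged 0.04 and that of Psat1 0.08, so the probes of both genes disagree.

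Of 28 further ER chaperones and folding enzymes, 1 passed, Hspa13, an Hsp70 family member of microsomes, at 0.28 ± 0.07 for SH-80 (limma adjusted p = 0.0464). Its other probe averaged -0.11, so its probes disagree, and the call held in 4 of 18 alternatives and was lost with any array but SH-42 replicate 1 left out (limma adjusted p 0.0595 to 0.238). For SH-42 Hyou1, the large BiP-related chaperone GRP170, was at 0.31 ± 0.10 and Pdia5, a disulfide isomerase, at 0.37 ± 0.12, and neither passed (limma adjusted p 0.161 and 0.157). Uggt1, the folding sensor of glycoproteins that returns chains to calreticulin, was at -0.27 ± 0.09 (limma adjusted p = 0.162), and its other probe averaged 0.20. Positive values were 12 of 28 for SH-42 and 20 of 28 for SH-80, and without SH-42 replicate 1 the SH-42 count was 19 of 28.

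Of 20 genes of ER-associated degradation none passed for either compound by limma, with 3 and 6 at an unadjusted p under 0.05. Ubxn4, which brings the p97 ATPase to the ER membrane, was at -0.24 ± 0.06 for SH-42 and -0.22 ± 0.06 for SH-80. Syvn1, the ubiquitin ligase HRD1, was at 0.22 ± 0.06 for SH-42. Derl3, a derlin, was at 0.39 ± 0.11 for SH-80 and missed the threshold (limma adjusted p = 0.0608).

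Of 22 genes of ER translocation and export, all 22 had a lower fitted ratio for SH-42 than for SH-80, with a median difference of -0.25 beside 0.02 for all genes, though none of the 22 differences passed (limma; 1 unadjusted). The list's median was -0.41 on SH-42 replicate 1, 0.00 and 0.09 on the other SH-42 arrays and 0.16, 0.07 and 0.22 on the SH-80 arrays. Without SH-42 replicate 1, 19 of 22 were lower and the median difference was -0.10. The gliosis, microglia and lens markers were lower and the rod markers higher in the same comparison, as given above, and their part in this difference was not tested. Sec62, a translocation channel subunit, was at 0.21 ± 0.05 for SH-80 (limma adjusted p = 0.0485), with its other probe at 0.13. Under median centring it was at -0.10. Its call held in 4 of 18 alternatives and, of the arrays left out in turn, only without SH-42 replicate 1 (limma adjusted p otherwise 0.0673 to 0.242). Sec31a, of the COPII coat, and Ssr3, of the translocon-associated complex, were at -0.28 ± 0.06 and -0.27 ± 0.06 for SH-42 and did not pass (limma adjusted p 0.108 and 0.116).

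Of 9 ER stress death genes 1 passed, Map3k5, the kinase ASK1, at -0.28 for SH-80 (limma adjusted p = 0.0308). Without any single SH-80 array it did not pass (limma adjusted p 0.132 to 0.199). Its other probe averaged 0.31 for SH-80, and averaged over its probes the SH-80 value was 0.0152. For SH-42 Map3k5 was at -0.26 ± 0.05 and did not pass (limma adjusted p = 0.111), with its other probe at 0.01. For SH-42 8 of 9 were negative with none called, and without SH-42 replicate 1 it was 5 of 9. Tnfrsf10b, the death receptor that CHOP is known to raise, was at -0.46 ± 0.16 for SH-42 with -0.97 on SH-42 replicate 1 (limma adjusted p = 0.168).

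**Figure D4:**
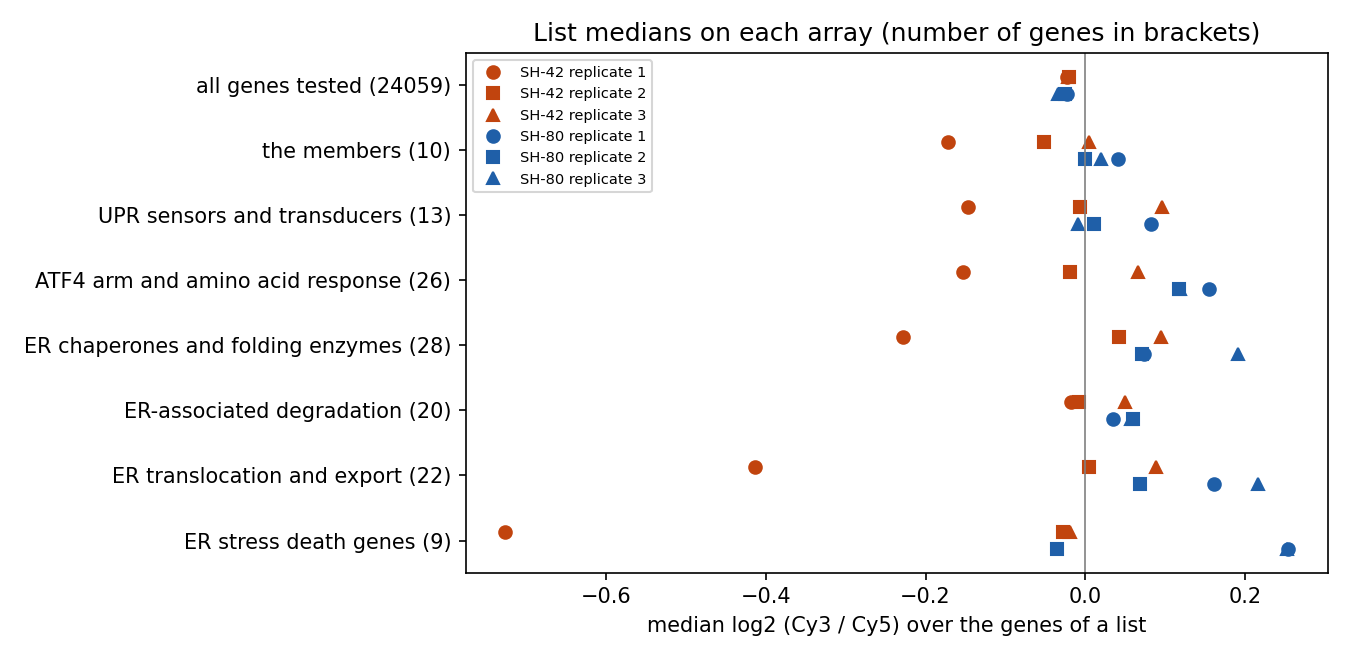
Median log2 ratio of Cy3 over Cy5 (horizontal axis) over the measured genes of each list on each array, for all genes, the 10 genes described here (the members) and 6 lists of the wider pathway. SH-42 replicate 1 (orange circles) lies lowest in every list shown other than all genes, at -0.41 for ER translocation and export and -0.73 for the death genes, and all other points lie between -0.05 and 0.25.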

How the data were processed

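Dual-colour Agilent arrays of retinal RNA were read as deposited. Per the file headers, the scanner files of the authors hold the intensity of each spot and its local background in both channels and a log10 ratio of red over green, which was not used here. The headers name Feature Extraction 11.0.1.1, and the submitters' processing notes name 9.3.2.1. The deposited value table holds, from its values, log2 ratios of the processed Cy5 over Cy3 signals plus a constant per array (99.7% of values within 0.01 of it). Its column medians were -0.0531, -0.0606 and -0.0612 for SH-42 replicates 1 to 3 and -0.0611, -0.0464 and -0.0754 for SH-80 replicates 1 to 3. Its scale and centring were thus found from the values, and whether its direction or that of the labels describes the RNA stays unknown.

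Median signals were corrected by normexp (offset 50), normalized by loess within each array with control spots at weight 0, and turned into log2(Cy3/Cy5). Single-channel levels are log2 signals after loess and quantile scaling of the average intensity (Aquantile). Of 39429 probes, 26055 (66.1%) matched a symbol through their RefSeq accession. The filter kept a probe that exceeded its background clearly, in Cy3 or Cy5, on 3 or more of the 6 arrays, and the brightest kept probe stood for a gene, which left 24059 genes, 15916 of them with a symbol. No spot was saturated. No 2 arrays were identical. Per array, 58.3% to 63.1% of probes were well above background in Cy3 and 70.9% to 76.7% in Cy5, and the number of arrays limits the precision.

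Each comparison used limma 3.58.1 in R 4.3.3, with 1 coefficient per compound over all 6 arrays, Benjamini-Hochberg adjustment and a threshold of 0.05. The script was tested on simulated data with independent noise for each gene and array and changes added to SH-42 arrays only. Likeness between arrays was not simulated, so that test does not bear on how well the p-values hold for these arrays. Alternatives were the background correction, dye and between-array normalization, source of the values, probe filter, several probes, slide, replicate number and each array left out. Fits on slide 1 or slide 2 alone were chosen after seeing the data. The 10 genes, the gene lists and the tests were chosen with earlier results of these data known. Outside the 10, the text names each list gene past the threshold, otherwise genes among the 3 of smallest p per list and comparison, and the 3 nearest patterns for Hspa5 and Ddit3. Promoters were printed for the genes with an ER stress response element. Figures were drawn with matplotlib 3.10.9. Same-numbered arrays of both compounds deviated from their group means with correlations of -0.153, -0.431 and 0.181, so the numbers were not taken to pair them.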

Additional observations from a re-analysis of the deposited data

Results flagged for a closer look

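Of the 10 genes and the 118 of the wider pathway, 4 of 128 (3.12%) had all SH-42 arrays on one side of 0 and all SH-80 arrays on the other, as did 360 of 24059 genes (1.5%). In none of the 4 did the difference between compounds pass limma's test, with an adjusted p of 0.691 for the 3 genes named here. The difference, SH-42 minus SH-80, was -0.18 for Dnajb9, the BiP partner described above, and its second probe did not share the split. It was -0.25 for Ssr1, a subunit of the translocon-associated complex, with ratios of -0.21, -0.02 and -0.01 for SH-42 and 0.21, 0.10 and 0.20 for SH-80. The other Ssr1 probes averaged -0.44 and 0.14 for SH-42 and -0.55 and 0.07 for SH-80, so neither changed sign between compounds. For Bax, the pore-forming death protein, it was -0.40, with ratios of -0.31, -0.08 and -0.02 for SH-42 and 0.32, 0.21 and 0.27 for SH-80.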

How the results depend on the processing

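Of the 10 genes, 1 was called for SH-42 (144 of all genes). The count was 0 with a normexp offset of 0 (0 of all genes), with scale normalization between arrays (4), with slide as a fixed block (0), with the SH-42 arrays alone (0) and with slide 1 alone (0), and 7 with median centring in place of loess (9054). Leaving out 1 array gave 0 to 1 (0 to 428). For SH-80, 1 gene was called (3532). The count was 0 with an offset of 0 (2667), scale normalization (636), the mean over probes (3314) and slide as a fixed block (0), 2 without background correction (4755) and with the deposited table (4854), and 3 with median centring (3625), the SH-80 arrays alone (9176) and slide 2 alone, which for SH-80 is the same fit (9176). Leaving out 1 array gave 0 to 3 (0 to 9336), where a compound left with 2 arrays borrows the spread of the others. With processed signals the single SH-80 call was Chac1 and not Atf4. The difference between compounds gave 0 calls in every alternative run.

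Median centring moved the median of all genes to -0.25 for SH-42 and -0.15 for SH-80, so its values are read against those. All 10 genes were negative for both compounds under it. It turned Hsp90b1 to -0.59, Calr to -0.38, Ddit3 to -0.38 and Herpud1 to -0.37 for SH-42. For SH-80 it turned Hsp90b1 to -0.31, Herpud1 to -0.24, Dnajb9 to -0.16, Ddit3 to -0.09 and Calr to -0.02. Sec62 turned to -0.46 for SH-42 and -0.10 for SH-80. The mean over probes turned Map3k5 for SH-80 to 0.0152, since its probes disagree. With the replicate number as a block, the difference between compounds gave 0 calls (706 genes at an unadjusted p under 0.05) and a Pdia3 difference of -0.54 with a limma adjusted p of 0.743, and no call changed. The causes of the other changes were not tested. The precision is limited by 3 arrays a compound and 1 spot a probe.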
